A study of Mus musculus with 8 samples.

Results

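Transcripts of 10 transcription factors of B-lineage commitment and maintenance were followed through 4 genotypes of pre-BII cells: Ebf1, Pax5, Foxo1, Foxp1, Spib, Bcl11a, Bach2, Myb, Ets1 and Runx1. They were chosen by name. Every probe set annotated to 1 of them was taken, which gave 31 of the 22626 probe sets tested: 7 for Foxp1, 5 for Runx1, 4 each for Foxo1 and Ets1, 3 each for Ebf1 and Myb, 2 for Bcl11a and 1 each for Pax5, Spib and Bach2. The cells came from 7-week-old mice of the Bl6 strain with both genes intact (WT), with a deletion of OBF-1, with a deletion of Aiolos, or with both deletions (Aiolos OBF-1, called double-mutant here), and no mouse received a treatment. Each genotype was measured on 2 arrays. The study describes sorted B220+ CD25+ pre-BII cells from pooled mice, whereas the sample labels name bone marrow without a sort, and for the mutants a single mouse. The deletions are in the germline and so are not restricted to B cells. Since the measurement is of bulk RNA, fewer cells of a type and less RNA per cell cannot be told apart.

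Early B cells are set on their course by Ebf1 and Pax5, which switch on the genes of the pre-B cell receptor and keep those of other blood lineages silent. Foxo1, Ets1, Runx1, Myb and Bcl11a act around them in the lymphoid precursor, while Foxp1, Spib and Bach2 are used in pre-B cells and later stages. Aiolos belongs to the Ikaros family of zinc finger proteins, and OBF-1 is a coactivator, without DNA binding of its own at most sites, that joins the Oct factors on octamer sequences. The comparisons ask whether the levels of the commitment factors shift when 1 or both of these regulators are lost.

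The deleted genes were checked first. Pou2af1, the gene of OBF-1, had intensities of 2761 and 2678 in the WT arrays and 2434 and 2842 in the Aiolos single-mutant arrays, against 241 and 236 in the OBF-1 single-mutant and 170 and 273 in the double-mutant arrays. The 4 arrays labelled as lacking OBF-1 were thus the 4 low ones. No probe set of Ikzf3, the gene of Aiolos, was analysed here. Genes of pre-BII identity were bright, with Cd79a at a mean of 7820 over the 8 arrays, Rag1 at 2875 and Il2ra, which encodes CD25, at 550.0. Granulocyte genes were bright as well, with S100a9 at 6428 and Ngp at 5483 (named after their values were seen). Of 16 granulocyte and monocyte markers 13 reached a mean of 100, so the levels do not show a pure sort. Arrays of the same genotype correlated with an r of 0.9961 to 0.9965, and the median intensity per array was 66.8 to 69.4. Fluidics station 2 served the 4 arrays of WT and of the OBF-1 deletion alone, and station 1 the 4 arrays that lack Aiolos. Loss of Aiolos and wash station therefore cannot be told apart, whereas both comparisons that differ in OBF-1 alone lie within a station.

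The signal of each member decides how well it could be measured. The probe sets of Spib, Myb, Bach2, Foxp1, Foxo1, Ets1 and Ebf1 that were brightest for their gene had means over the 8 arrays of 927 to 4735. Bcl11a had a mean of 236, and the brightest of the 5 Runx1 probe sets one of 119. The single Pax5 probe set lay at 58.4 to 72.6, around the median of all probe sets on each array, so it gives little information on the factor on which B cell identity depends. In the following, a change is the difference of log2 intensities fitted with limma over all probe sets of the array, and the threshold was an adjusted p of 0.05 (Benjamini-Hochberg). Because probe sets differ in how well they bind, these signals do not rank the genes by transcript level.

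**Figure D1:**
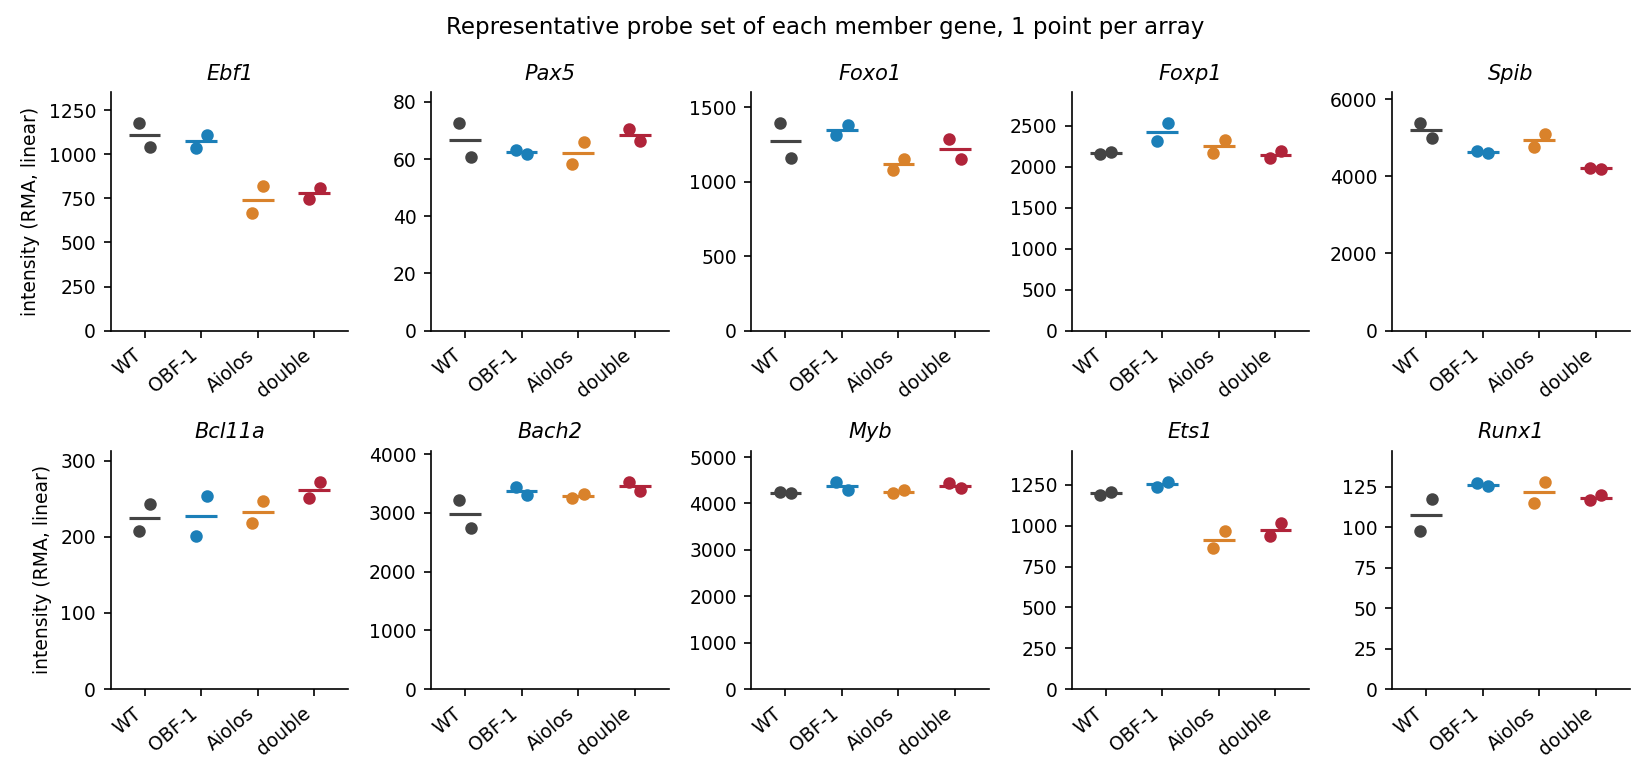
Intensity on a linear scale from 0 (vertical axis, a scale of its own in each panel) of the brightest probe set of each of the 10 genes in WT, OBF-1 single-mutant, Aiolos single-mutant and double-mutant cells; points are single arrays, 2 per genotype, and lines their mean. In Ebf1 and Ets1 the 4 arrays without Aiolos lie below the 4 arrays with Aiolos, and in Spib the 2 double-mutant arrays are the lowest of the 8.

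Few members changed. In Aiolos single-mutant cells 2 of the 31 probe sets fell against WT, 1 of Ebf1 and 1 of Ets1, where 1.84% of all probe sets tested changed in either direction and 1.01% fell. In OBF-1 single-mutant cells none of the 31 passed with limma, where 2.09% of all probe sets passed. Of the 31, 6 had an unadjusted p under 0.05, a level at which the share of all probe sets was not determined. In double-mutant cells 1 of the 31 fell, again of Ebf1, while 8.57% of all probe sets changed and 4.28% fell. The median change of the 31 in the double mutant was 0.02 on the log2 scale, and that of all probe sets 0.01. Whether the members' share differs from that of the array was not tested in any comparison.

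How far a change could have gone undetected follows from the intervals. For the 31 probe sets in the OBF-1 single mutant all 95% confidence intervals lay within -0.38 to 0.61, and for the 30 that did not pass in the double mutant within -0.64 to 0.74, so a change of 1 on the log2 scale in either direction lay outside each of them. The median standard error of a member's change was 0.11. No member passed between the double mutant and the Aiolos single mutant, where 2.95% of all probe sets passed. None passed between the double mutant and the OBF-1 single mutant either, where 2.63% of all probe sets passed. At an unadjusted p under 0.05 there were 5 and 9 members in these comparisons. The share of all probe sets at that unadjusted level was not determined. Between the Aiolos and the OBF-1 single mutant 5 of the 31 were lower in the former, 1 of Ebf1 and all 4 of Ets1, and 2.77% of all probe sets differed, 1.42% in that direction.

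**Figure D2:**
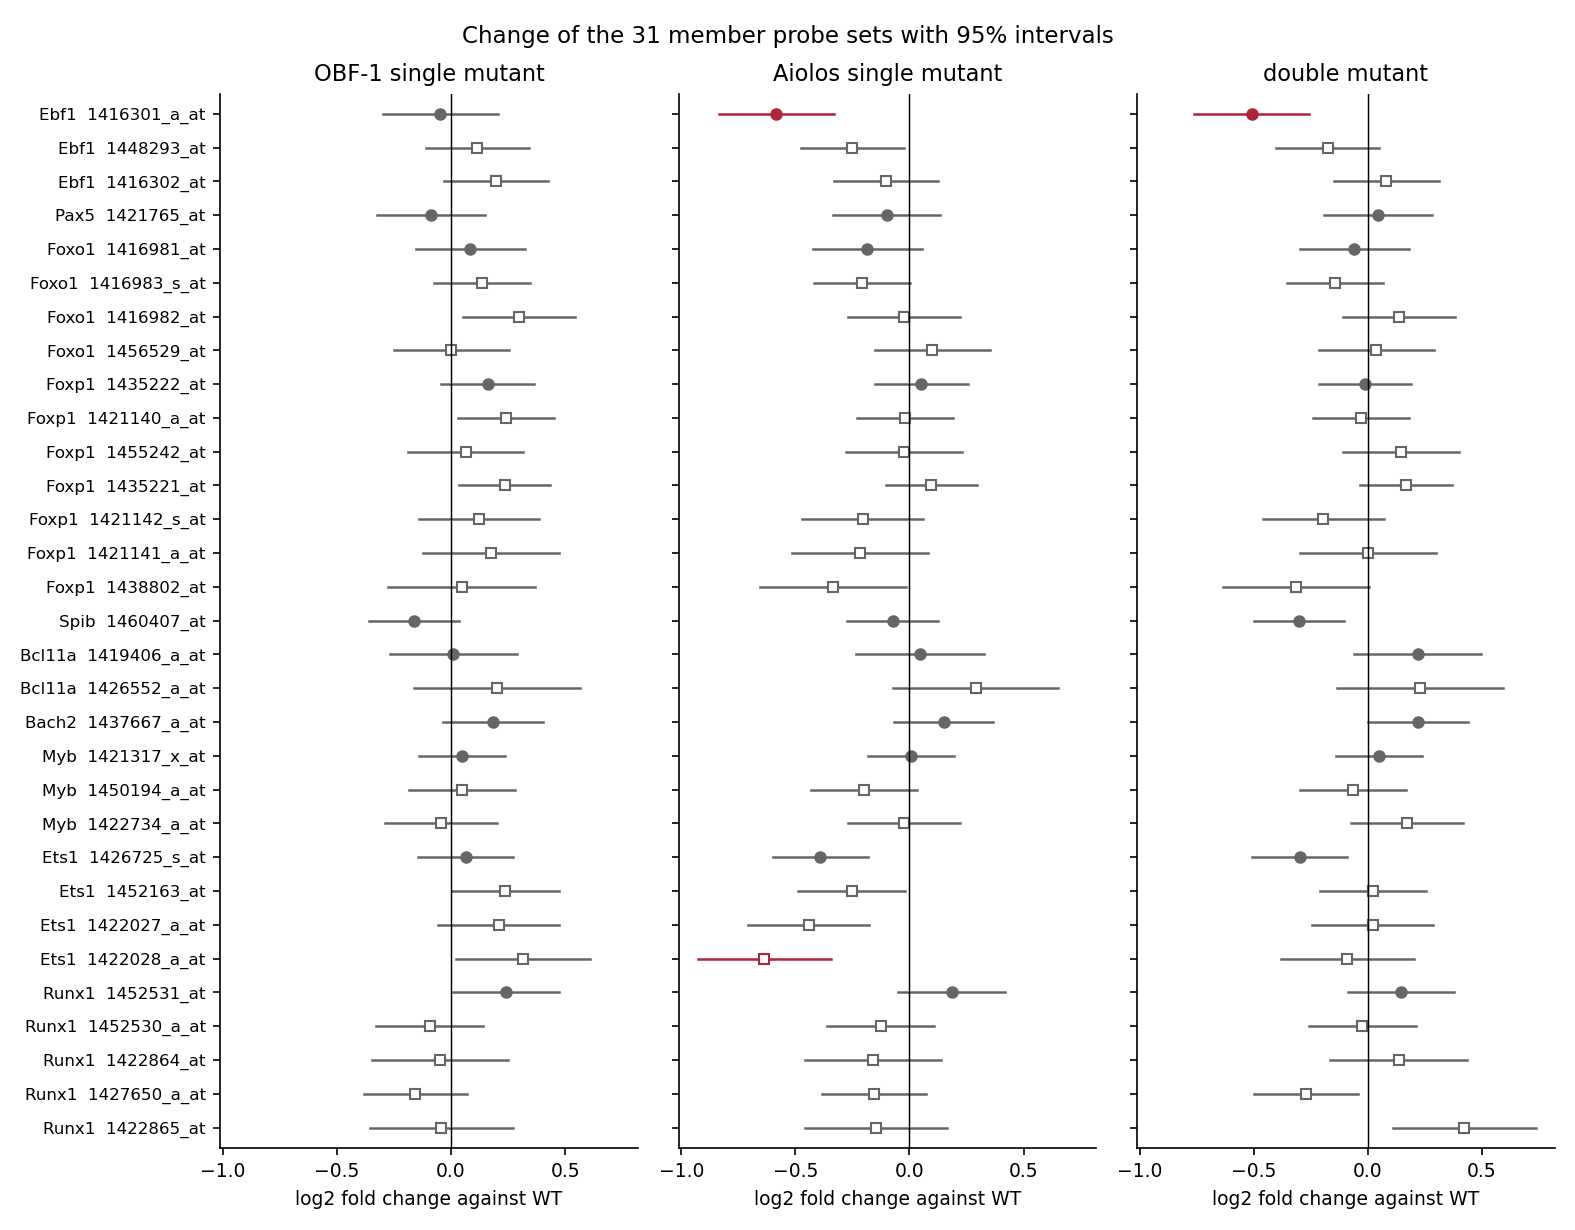
Log2 fold change against WT (horizontal axis) of the 31 probe sets in the OBF-1 single mutant, the Aiolos single mutant and the double mutant, with 95% confidence intervals from limma (2 arrays per genotype); filled circles mark the brightest probe set of a gene, open squares its other probe sets, and red an adjusted p under 0.05. Red are 1 Ebf1 and 1 Ets1 probe set in the Aiolos single mutant and the same Ebf1 probe set in the double mutant, all to the left of 0.

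Ebf1, which opens the B-lineage programme in precursors, was lower without Aiolos in its brightest probe set, 1416301_a_at. The intensities were 1177 and 1044 in WT, 1036 and 1112 in OBF-1 single mutants, 667 and 821 in Aiolos single mutants and 747 and 811 in double mutants. All 4 arrays without Aiolos lay below the 4 with it, and the groups did not overlap. The change against WT was -0.58 ± 0.12 (SE, n = 2 per genotype) in the Aiolos single mutant, a level of 66.7% of WT (limma, adjusted p = 0.0297), and -0.51 ± 0.12 in the double mutant, 70.2% of WT (limma, adjusted p = 0.0177). In the OBF-1 single mutant it was -0.05 (95% interval -0.30 to 0.21). The double mutant differed from the Aiolos single mutant by 0.07 (95% interval -0.18 to 0.33).

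The other Ebf1 probe sets moved less. Probe set 1448293_at read 676 and 710 in WT, 555 and 610 in Aiolos single mutants and 582 and 644 in double mutants, a change of -0.25 and -0.18 that did not pass (limma, adjusted p = 0.222 and 0.364). Probe set 1416302_at read 561 and 488 in WT, 464 and 511 in Aiolos single mutants and 526 and 582 in double mutants, a change of -0.10 and 0.08 (limma, adjusted p = 0.625 and 0.734). For this probe set the double-mutant arrays overlapped those of WT, so the reduction was not shared by all 3 probe sets. The position of each probe set along the transcript was not analysed here. Each Ebf1 call rested on single arrays: against WT the adjusted p from limma for the Aiolos single mutant became 0.231 without WT array 1, 0.0654 without WT array 2 and 0.227 without Aiolos array 1, and that of the double mutant became 0.136 without WT array 1 and 0.126 without double-mutant array 1.

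The promoter windows of Ebf1 are shown because this gene was lower in the arrays without Aiolos, a factor of the Ikaros family, whose core sequence is TGGGAA (read from the other strand, TTCCCA). RefSeq gives 2 windows of 300 bases, from 250 before to 50 after a start site (GRCm38.p6, plus strand, chr11:44617850-44618149 and chr11:44619978-44620277). The core is in capitals in the downstream window, 207 bases before the start site, and is not in the upstream window, of which the stretch around a Runx core (TGTGGT, in capitals) is given (chr11:44618076-44618105).
Ebf1, downstream window: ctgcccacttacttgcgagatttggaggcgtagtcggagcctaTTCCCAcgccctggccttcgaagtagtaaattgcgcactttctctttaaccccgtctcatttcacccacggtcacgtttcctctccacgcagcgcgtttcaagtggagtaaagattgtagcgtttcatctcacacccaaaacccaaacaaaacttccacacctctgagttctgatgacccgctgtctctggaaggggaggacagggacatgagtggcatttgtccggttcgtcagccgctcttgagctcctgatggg
Ebf1, Runx core of the upstream window: aaaaaaaaaatcTGTGGTtggcgttttttt

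Of the 13 windows found for 9 members, 3 held the Ikaros core, those of Ebf1, Foxp1 and Bcl11a, beside 25.6% of the 32851 windows of the table. The stretches of the latter 2 are shown for comparison with Ebf1, with the core in capitals (GRCm38.p6, Bcl11a on the plus strand at chr11:24080522-24080551, Foxp1 on the minus strand at chr6:99266468-99266497).
Bcl11a: aggggtgctcatTGGGAAttgaatttttcc
Foxp1: ctgccgccagccTGGGAAccctgagagccg

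Neither gene had a probe set that passed in any comparison. The octamer ATGCAAAT, on which OBF-1 joins Oct factors, was in none of the 13 member windows and in 1.74% of all windows. The Runx core TGTGGT was in 2 member windows, of Ebf1 and Runx1 (16.8% of all), the Ets core ACTTCC in 1, the downstream window of Ebf1 (23.8% of all), the forkhead sequence TGTTTAC in 1, of Myb (3.65% of all), and the palindromic Ebf1 sequence in 1, of Foxo1 (0.904% of all). Both strands were searched for exact letters. A match is a string of letters and no measured site. For Ets1 no window was in the table.

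Ets1, a founding member of the ETS family that is used from lymphoid precursors onward, spread most widely in its dimmest probe set. There the highest array was 2.12 times the lowest. In its brightest probe set this was 1.47 times, less than the 1.77 of the brightest Ebf1 probe set. The dimmest Ets1 probe set, 1422028_a_at, read 104 and 77.3 in WT, 110 and 113 in OBF-1 single mutants, 62.1 and 53.3 in Aiolos single mutants and 88.1 and 80.1 in double mutants. Both Aiolos single-mutant arrays lay below all others and both OBF-1 single-mutant arrays above all others. The change in the Aiolos single mutant was -0.64 ± 0.13 against WT (SE, n = 2 per genotype, limma, adjusted p = 0.0381) and -0.95 ± 0.13 against the OBF-1 single mutant, a level of 51.7% (limma, adjusted p = 0.00248). In the double mutant it was -0.09 against WT (95% interval -0.38 to 0.20).

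The brightest Ets1 probe set, 1426725_s_at, read 1191 and 1207 in WT, 1236 and 1270 in OBF-1 single mutants, 865 and 967 in Aiolos single mutants and 937 and 1015 in double mutants. Its suffix marks a type that can bind other transcripts too. As in the brightest Ebf1 probe set, the 4 arrays without Aiolos were the 4 lowest. The change was -0.39 ± 0.10 in Aiolos single mutants and -0.30 ± 0.10 in double mutants against WT, neither of which passed (limma, adjusted p = 0.065 and 0.0802), and -0.45 ± 0.10 between the single mutants, which did (limma, adjusted p = 0.0254). The double-mutant value passed in 3 of the alternative settings (limma, adjusted p = 0.0387 to 0.0413).

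In probe sets 1452163_at and 1422027_a_at, too, the mean was lowest in the Aiolos single mutant and highest in the OBF-1 single mutant, but here that of the double mutant lay above the WT mean and not below it. The former read 852 and 817 in WT, 1063 and 910 in OBF-1 single mutants, 662 and 739 in Aiolos single mutants and 808 and 887 in double mutants. The latter read 159 and 144, 190 and 162, 122 and 102, and 164 and 144 in the same order. In both, the Aiolos single-mutant arrays lay below all 6 others, and the double-mutant arrays overlapped those of WT. The single mutants differed by -0.49 ± 0.11 and -0.65 ± 0.12 (limma, adjusted p = 0.0309 and 0.014). Since the 4 probe sets read the same RNA, they are not independent measurements of Ets1. The 2 with the largest differences between the single mutants, 1422028_a_at and 1422027_a_at, were also the dimmest, with means of 85.9 and 148.

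Single arrays again decided some of the Ets1 calls. The fall of 1422028_a_at in the Aiolos single mutant against WT did not pass without WT array 1 (limma, adjusted p = 0.263), without either OBF-1 array (0.0562), without Aiolos array 1 (0.114) or without Aiolos array 2 (0.178), whereas its difference between the single mutants passed whichever array was left out. Of the other differences between the single mutants, that of 1422027_a_at was lost without OBF-1 array 1 or Aiolos array 2 (limma, adjusted p = 0.11 and 0.133), that of 1452163_at without OBF-1 array 1, Aiolos array 1 or Aiolos array 2 (limma, adjusted p = 0.0773 to 0.223), and that of 1426725_s_at without any 1 of the 4 single-mutant arrays (limma, adjusted p = 0.0582 to 0.206). The difference of Ebf1 1416301_a_at between the single mutants, at -0.54 ± 0.12 (limma, adjusted p = 0.0298), was lost without OBF-1 array 1, OBF-1 array 2 or Aiolos array 1 (limma, adjusted p = 0.0836 to 0.239).

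**Figure D3:**
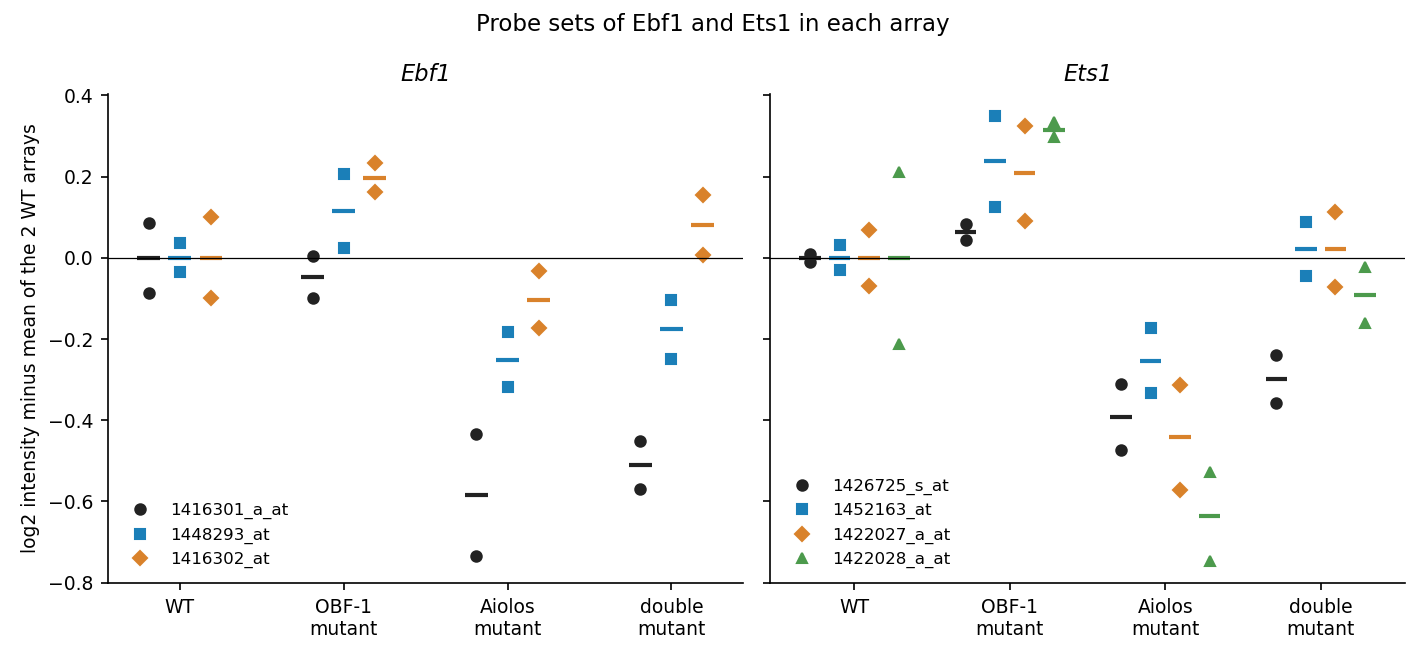
Log2 intensity minus the mean of the 2 WT arrays (vertical axis) for the 3 probe sets of Ebf1 and the 4 of Ets1; points are single arrays, short lines the mean of the 2 arrays of a genotype. In all 4 Ets1 probe sets the Aiolos single mutant is lowest and the OBF-1 single mutant highest, and the double mutant lies between them.

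The 4 genotypes form a cross of both deletions, so each loss could also be averaged over both states of the other gene, 4 arrays against 4, an analysis chosen after seeing the data. With loss of Aiolos 4 of the 31 member probe sets fell, where 6.17% of all probe sets changed and 3.27% fell. They were Ebf1 1416301_a_at (-0.52 ± 0.08, adjusted p = 0.00325 with limma), Ebf1 1448293_at (-0.27 ± 0.07, adjusted p = 0.0492 with limma), Ets1 1426725_s_at (-0.38 ± 0.07, adjusted p = 0.0071 with limma) and Ets1 1422028_a_at (-0.52 ± 0.09, adjusted p = 0.00762 with limma). The arrays with and without Aiolos did not overlap in 6 of the 31, beside 9.13% of all probe sets: both of these Ebf1 probe sets, Ets1 1426725_s_at and 1 each of Foxo1, Foxp1 and Myb. All 4 but Ebf1 1448293_at passed whichever of the 8 arrays was left out. With 1 array left out, Ebf1 1448293_at passed only without double-mutant array 2, and otherwise had an adjusted p of 0.0581 to 0.182. Loss of Aiolos is here again also the difference between wash stations.

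With loss of OBF-1, averaged within stations, 2 of the 31 rose, where 5.02% of all probe sets changed and 2.72% rose. Both were of Ets1, 1422027_a_at (0.34 ± 0.09, adjusted p = 0.0456 with limma) and 1422028_a_at (0.43 ± 0.09, adjusted p = 0.0207 with limma). Probe set 1452163_at had a change of 0.26 ± 0.08 (adjusted p = 0.0847 with limma), and the brightest, 1426725_s_at, one of 0.08 (95% interval -0.07 to 0.23). The call of 1422027_a_at was lost without any 1 of 6 arrays (adjusted p = 0.0542 to 0.189 with limma) and that of 1422028_a_at without any 1 of 5 (adjusted p = 0.0575 to 0.0948 with limma). Ebf1 1416301_a_at had a change of 0.01 (95% interval -0.17 to 0.19). On the log2 scale no member passed for the interaction of the deletions, where 0.186% of all probe sets passed. This was the least precise of the comparisons. The median standard error of a member's value was 0.15, and the 95% intervals reached from -0.78 to 1.05. Failing to pass therefore does not show that the 2 losses add. At an unadjusted p under 0.05 there was 1 member, and the share of all probe sets at that level was not determined. In that comparison an effect of the wash station cancels if it is additive in log2.

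**Figure D4:**
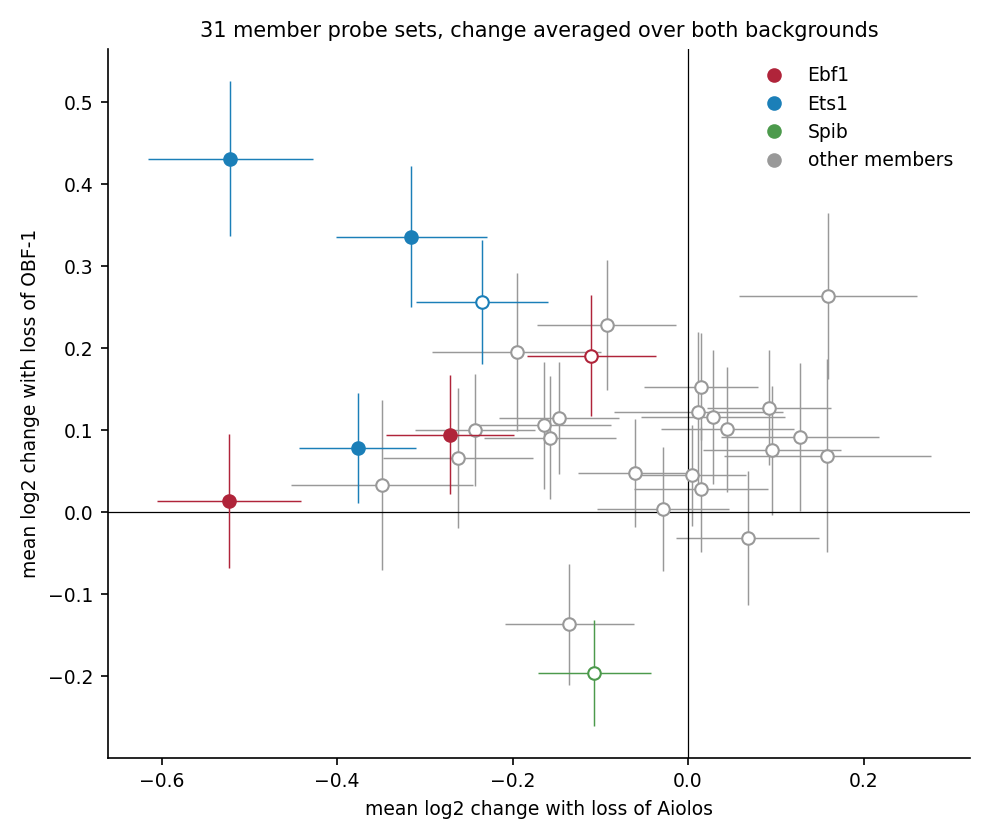
Mean log2 change with loss of Aiolos (horizontal axis, between wash stations) and with loss of OBF-1 (vertical axis, within stations) for the 31 probe sets, each over 4 arrays against 4; bars are standard errors and filled points passed in at least 1 of the comparisons at an adjusted p under 0.05. The 4 Ets1 probe sets lie at the left and above 0, Ebf1 at the left, and Spib below 0 on both axes.

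Some proliferation genes were also lower in the arrays without Aiolos. Of 18 cell cycle genes 11 fell with loss of Aiolos averaged over both OBF-1 states, among them Aurkb, a mitotic kinase (-0.45 ± 0.07, adjusted p = 0.00346 with limma; named after its value was seen), where 6.32% of all genes changed, 7 did not pass and none rose. Against WT, Aurkb was the only 1 of the 18 that passed in the Aiolos single mutant. Their summed intensity was 7246 to 7259 in WT, 7355 to 7765 in OBF-1 single mutants, 6300 to 6310 in Aiolos single mutants and 5862 to 6660 in double mutants. Their part in the Ebf1 and Ets1 result was not tested. In the double mutant against WT none of the 18 passed with limma, and the 2 brightest, Pcna, the clamp of the replication fork, and Mki67, the Ki-67 antigen, had values of -0.17 and -0.18. The genes whose log2 levels were most like those of Ebf1 over the 8 arrays, among 5965 genes with a mean of at least 100, were Slfn8 (r = 0.9734), Mical1 (r = 0.9681) and Gna13 (r = 0.9645). For Ets1 they were Mical1 (r = 0.9818), Srgn (r = 0.9787) and Slfn8 (r = 0.9775). The 8 points share genotypes and wash stations, so these are descriptions of a pattern.

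Spib, an ETS factor close to PU.1 that is used in B cells, read 5375 and 4996 in WT, 4660 and 4594 in OBF-1 single mutants, 4750 and 5102 in Aiolos single mutants and 4216 and 4185 in double mutants. Both double-mutant arrays lay below all 6 others. The change against WT was -0.30 ± 0.09 in the double mutant, a level of 81.1% (limma, adjusted p = 0.0625), -0.16 ± 0.09 in OBF-1 single mutants (0.486) and -0.07 ± 0.09 in Aiolos single mutants (0.692). It passed in the double mutant when arrays were centred on their median (0.0432), when only probe sets of at least 100 were tested (0.0295), with 16 added to each value (0.0235) and with a trended, robust prior (0.0109).

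Bach2, a repressor that holds back plasma cell differentiation, read 3216 and 2738 in WT, 3445 and 3299 in OBF-1 single mutants, 3255 and 3327 in Aiolos single mutants and 3534 and 3381 in double mutants. Its means were highest in the double mutant, but the 2 WT arrays differed by more than any other pair, and the change of 0.22 ± 0.10 did not pass (limma, adjusted p = 0.228). Bcl11a, a zinc finger factor of lymphoid precursors, read 201 to 272 over the 8 arrays in its brighter probe set, with a change in the double mutant of 0.22 ± 0.13 (limma, adjusted p = 0.365). Its other probe set, at 49.6 to 82.4, is dim.

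Of the forkhead factors, Foxo1 drives the recombination genes and the IL-7 receptor, and Foxp1 acts on recombination in precursors. The 3 bright Foxo1 probe sets, with means of 609 to 1241, had changes of -0.21 to -0.02 in the Aiolos single mutant, 0.08 to 0.30 in the OBF-1 single mutant and -0.14 to 0.14 in the double mutant, and none passed. The other lay at 26.0 to 32.3. The highest of these values in the OBF-1 single mutant was that of 1416982_at, which read 606 and 525 in WT and 753 and 639 in the mutant (limma, adjusted p = 0.26). The 7 Foxp1 probe sets, with means of 463 to 2244, had changes between -0.32 and 0.17 in the double mutant and between 0.05 and 0.24 in the OBF-1 single mutant. Its brightest probe set, 1435222_at, changed by -0.01 in the double mutant (95% interval -0.22 to 0.19).

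Myb, which is needed in lymphoid precursors, was bright. Its brightest probe set, 1421317_x_at, read 4227 to 4471 over the 8 arrays, although its suffix marks a type that can bind other transcripts too. The other 2 lay at 1527 to 2092 and 1133 to 1500, and the changes of the 3 in the double mutant were -0.07 to 0.17. Pax5, at 58.4 to 72.6, changed by 0.04 in the double mutant (95% interval -0.20 to 0.28).

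Runx1, which opens chromatin in blood precursors, was dim in all 5 probe sets. Probe set 1422865_at read 55.3 and 47.3 in WT, 58.3 and 42.3 in OBF-1 single mutants, 48.7 and 43.8 in Aiolos single mutants and 71.9 and 65.3 in double mutants. Both double-mutant arrays were above all 6 others, but the level lay at the median of the array. The change was 0.42 ± 0.14 against WT (limma, adjusted p = 0.0988) and 0.57 ± 0.14 against the Aiolos single mutant (limma, adjusted p = 0.0592). Neither passed, and the other 4 Runx1 probe sets had changes of -0.27 to 0.15 in the double mutant against WT.

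The relatives of the members in the same families were measured by 21 genes, and 1 passed downward and 2 upward in the double mutant against WT, where 8.99% of all genes changed (1 probe set per gene). The fall was that of Ets2, an ETS factor, at -0.87 ± 0.10 (adjusted p = 0.000264 with limma), and it was seen in the OBF-1 single mutant as well, at -0.81 ± 0.10 (adjusted p = 0.00131 with limma). In the Aiolos single mutant the value was -0.28 ± 0.10 (adjusted p = 0.178 with limma). Ets2 therefore went with loss of OBF-1 and within stations, at -0.70 ± 0.07 averaged over both Aiolos states (adjusted p = 0.000126 with limma). Bach1 rose by 0.48 and Elf4 by 0.36 in the double mutant.

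The genes on which the members are known to act were described from lists drawn up with earlier results of these data known. Of 20 genes activated by Ebf1 or Pax5, 7 rose and 5 fell in the double mutant, beside 8.99% of all genes changed in either direction. The list median was 0.02, and that of all genes 0.01. The largest were the surrogate light chain genes Igll1 (4.22 ± 0.11) and Vpreb1 (4.12 ± 0.10), Pou2af1 itself (-3.66 ± 0.17) and Lef1 (2.26 ± 0.12), a factor of the Wnt pathway in pro-B cells. Pou2af1 is the deleted gene of OBF-1. Its fall, 1 of the 5, was set by the genotype and says nothing about Ebf1 or Pax5. Igll1 and Vpreb1 also rose in the Aiolos single mutant, by 3.30 and 2.87, and in the OBF-1 single mutant, by 0.84 and 1.17. The B cell receptor chain gene Cd79b fell by 0.81 and the BAFF receptor gene Tnfrsf13c fell by 1.10 (named after their values were seen).

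Of 17 genes repressed by Pax5, 4 rose and 1 fell in the double mutant, beside 8.99% of all genes changed in either direction, with a list median of 0.12 beside 0.01 over all genes. Those that rose were Lmo2 (1.58 ± 0.16), a factor of blood stem cells, Sdc1 (0.98 ± 0.10), the surface protein syndecan-1, Csf1r (0.49 ± 0.11), the receptor of macrophage growth factor, and Notch1 (0.41 ± 0.09). The gene that fell was Grap2, an adaptor of T cell signalling (-0.39 ± 0.09; named after its value was seen). Of 10 genes activated by Foxo1, 2 rose and 1 fell: Il7r (0.88 ± 0.10), Rag2 (0.70 ± 0.15) and Klf2 (-0.49 ± 0.13). The study, without giving values, reports Rag2 as unaltered by loss of either factor or both. Of 8 genes activated by Myb, 4 rose, namely Lmo2, Il7r, the spindle checkpoint gene Mad1l1 (0.43 ± 0.12) and Gfi1 (0.42 ± 0.11), a repressor of lymphoid and myeloid precursors.

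Of 6 genes of plasma cell differentiation, 3 rose in the double mutant, beside 8.99% of all genes changed in either direction. They were Sdc1, Irf4 (0.69 ± 0.10) and Creb3l2 (0.41 ± 0.10). In WT, Sdc1 and Irf4 already had means of 405 and 1593. The study, without giving values, describes Irf4 as expressed alike in pre-BII cells of all its mice. Its software differed from that used here. Irf4 is also 1 of the 7 that rose among the genes activated by Ebf1 or Pax5, and Sdc1 1 of the 4 among those repressed by Pax5, so the counts of these lists are not independent. Prdm1, which encodes the plasma cell regulator Blimp-1, did not pass (-0.19 ± 0.09, adjusted p = 0.27 with limma; named after its value was seen). It was dim, with means of 63.3 in WT and 55.3 in the double mutant. Of 13 factors of other blood lineages 2 rose, again beside 8.99% of all genes changed. These were the erythroid factors Klf1 (0.69 ± 0.15) and Tal1 (0.52 ± 0.11), which both also rose in the OBF-1 single mutant. Only 2 of the 13 reached a mean of 100.

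**Figure D5:**
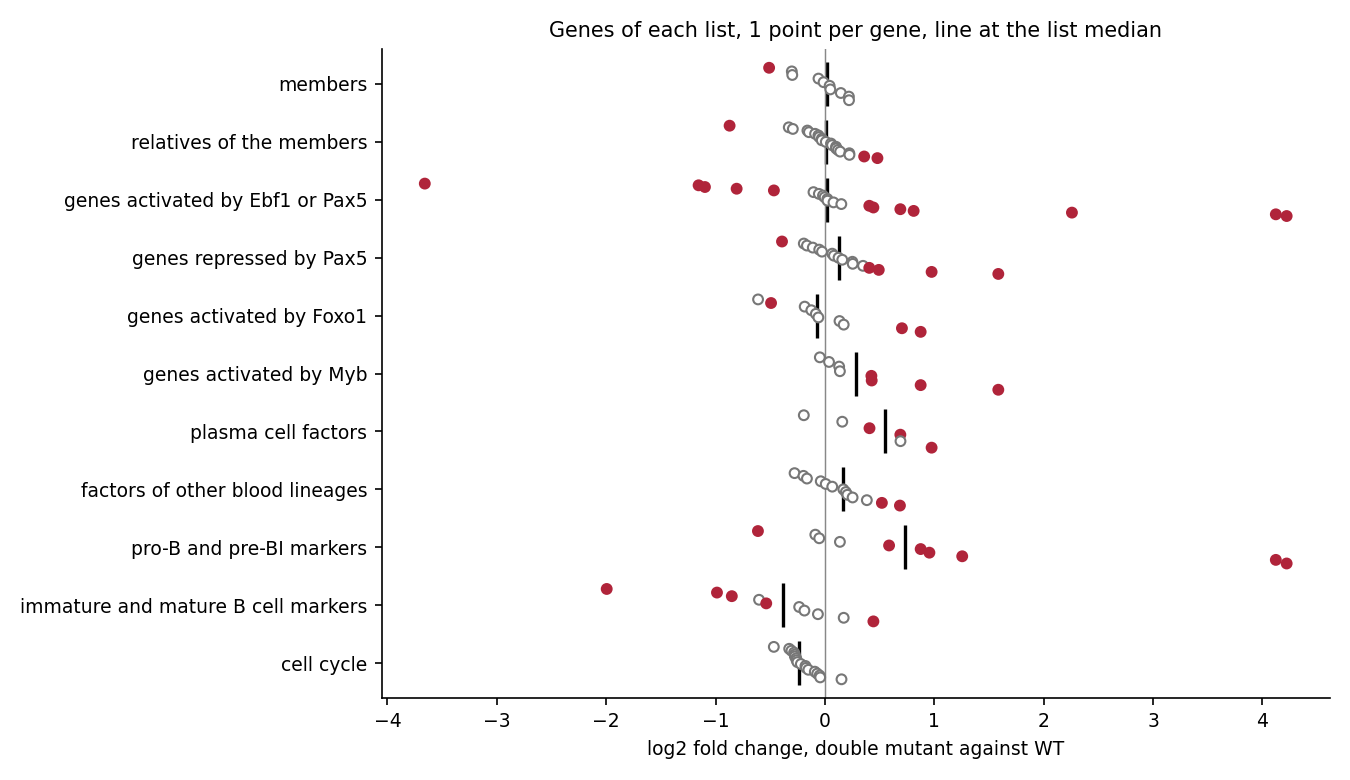
Log2 fold change of the double mutant against WT (horizontal axis) for the 10 members, by the brightest probe set, and for the genes of 10 lists; each point is a gene, red where the adjusted p was under 0.05, and the black line is the median of the list. Among the members only Ebf1 is red, while the genes activated by Ebf1 or Pax5 spread from -3.66 to 4.22. The lowest of these is Pou2af1, the deleted gene of OBF-1.

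Markers of developmental stage and of other cells moved beside these lists, in the same comparison in which 8.99% of all genes changed. Of 10 pro-B and pre-BI markers 6 rose in the double mutant, led by Igll1, Vpreb1, the aminopeptidase gene Enpep (1.25 ± 0.17) and Spn (0.95 ± 0.10), which encodes CD43. The 1 that fell was Cd93 (mean of 1880 in WT and 1231 in the double mutant), and Kit, Flt3 and Crlf2 did not pass (named after their values were seen). Igll1 and Vpreb1 are also counted among the genes activated by Ebf1 or Pax5. The study ascribes the rise of λ5, encoded by Igll1, to high expression in small pre-BII cells and not to more early B cells. Of 10 immature and mature B cell markers 4 fell and 1 rose, with Ms4a1, which encodes CD20, lowest of them, Cd74 at -0.99 ± 0.10, H2-Ab1 at -0.85 ± 0.16 and Fcer2a at -0.54 ± 0.12. Of 7 pre-BII identity genes Il2ra (0.66 ± 0.11), Blnk and Rag2 rose and Cd79b fell. Their part in the results on the members was not tested.

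Of 16 granulocyte and monocyte markers 9 rose in the double mutant and none fell, again beside 8.99% of all genes changed in either direction, among them Mpo (0.64 ± 0.15), Lyz2 (0.56 ± 0.09), Fcgr3 (0.51 ± 0.12) and Csf1r. Their summed intensity was 25306 to 25417 in WT, 28833 to 29633 in the Aiolos single mutant, 30833 to 35229 in OBF-1 single mutants and 31352 to 31824 in the double mutant. Of 6 erythroid markers Car2 (1.18 ± 0.15) and Klf1 rose, with a summed intensity of 772 to 835 in WT and 1292 to 1522 in the double mutant. Of 11 T cell markers only Lat rose (0.64 ± 0.10), and 1 of the 11 reached a mean of 100. None of 9 NK and dendritic cell markers passed with limma, the brightest being Flt3 (-0.05) and Itgax (0.11), and of 6 plasma cell markers Sdc1 and Slamf7 (0.60 ± 0.10) rose. Csf1r and Klf1 thus stand both among the genes above and among markers of other cells. The part of such cells in the results on the members was not tested.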

How the data were processed

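Expression was measured on MOE430A GeneChips, 8 arrays in all, which is what limits the precision. The authors deposited intensity values on a linear scale, made with RMA, a method of background correction, quantile normalization and summary over probes (version not given in the sources used here). Their log2 was taken. Of 22690 probe sets 64 controls were left out. Of the 22626 tested, 20380 had 1 gene symbol, 691 had several and 1555 were not named; genes were represented by the probe set with the highest mean log2 value over all arrays (12393 symbols). Promoter windows are from RefSeq, GRCm38.p6.

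The fit used limma 3.58.1 in R 4.3.3, a mean for each genotype over all 8 arrays and variances shrunk by eBayes (residual degrees of freedom 4, prior 7.69), and p-values were adjusted over all probe sets within a comparison. The study's methods describe the RNA of the 2 arrays of a genotype as coming from independent pools of mice, which the sample labels do not show; p-values measure the spread between these arrays. The script was tested on simulated data for the double mutant against WT with 22626 probe sets, of which 200 were changed. On the log2 scale 72.9% of changes of 0.5 and 100% of changes of 1 were recovered. Of the calls 7.44% were false, above the 5% of the threshold. In the data 1938 probe sets passed in this comparison, so the rates of the simulation need not hold there. The members, the gene lists and the tests were chosen with earlier results of these data known. All members were named, up to 4 genes of each list by size of change in the double mutant (with none passing, the 2 brightest), and the 3 genes most like each member that passed; others are said to be named after their values were seen. No enrichment was tested. Alternatives were another normalization, centring, a filter on dim probe sets, 16 added to each value, other priors, a replicate block, fewer genotypes in the fit, the mean of a gene's probe sets, and each array left out.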

Additional observations from a re-analysis of the deposited data

How the results depend on the processing

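Counts are of the 31 member probe sets that passed. Without moderation of variances no member passed in any comparison, against 2 for the Aiolos single mutant with WT, 1 for the double mutant with WT, 5 between the single mutants, and 4 and 2 for loss of Aiolos and of OBF-1 averaged. With only the compared genotypes in the fit the counts were 0, 2 and 2 in the first 3 of these, and 2 between the double mutant and the Aiolos single mutant, which had 0. The double mutant with WT had 2 with arrays centred on their median, and 3 with only probe sets of at least 100, with 16 added to each value or with a trended, robust prior, Spib joining in all 4. Between the double mutant and the Aiolos single mutant there were 2 after a second quantile normalization, 1 with only probe sets of at least 100 and 2 with the trended prior, and between the double mutant and the OBF-1 single mutant 2, 1 and 2 with the filter, the added 16 and the trended prior, against 0. Loss of OBF-1 averaged had 4 with the trended prior. With probe sets averaged by gene, 1 member gene (Ets1) passed between the double mutant and the Aiolos single mutant and 1 (Ets1) for loss of OBF-1 averaged, against 0 in each. Leaving out 1 array gave 0 to 2 for the Aiolos single mutant with WT, 0 to 2 for the double mutant with WT, 0 to 1 between the double mutant and either single mutant, 1 to 5 between the single mutants and 0 to 2 for loss of OBF-1 averaged. Where this left a genotype with 1 array, that array was assumed to vary like the others. No direction of a passing value was reversed, and the causes were not tested.

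Deviations from the genotype means correlated little between arrays of the same replicate number (-0.0875 to 0.103). The ratio of 3' to 5' signal of actin, a measure of RNA quality, was however higher in replicate 2 of every genotype. In WT it was 1.71 in replicate 1 and 2.14 in replicate 2. The ratio of Gapdh went the same way in every genotype. Replicate number thus went with this measure, and its part in the results was not tested. With the replicate block 2 members passed in the double mutant with WT, 3 between the double mutant and the Aiolos single mutant and 1 between the double mutant and the OBF-1 single mutant.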
